A study of Mus musculus with 60 samples.

Results

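The Nduf genes encode most of the nuclear-encoded part of respiratory complex I, the NADH dehydrogenase of mitochondria. The genes described here are all those in the RNA count table whose symbol is Nduf followed by a, b, c, s, v, ab or af and a number. This pattern took 44 of the 23127 genes in the table, with no measured value used in the choice. They comprise 7 core subunits of the matrix arm, 10 accessory subunits of the matrix arm, 19 accessory subunits of the membrane arm, Ndufa4, which is now regarded as a subunit of complex IV, and 7 assembly factors (Ndufaf1 to Ndufaf7). Of these, 43 had 10 or more counts in at least 2 libraries and were tested.

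Complex I takes electrons from NADH and passes them along flavin and iron-sulfur centres of its matrix arm to ubiquinone, while its membrane arm pumps protons across the inner mitochondrial membrane. The core subunits do the catalysis, the accessory subunits surround and hold the core, and assembly factors build the modules and then leave. The core of the membrane arm is encoded by mitochondrial DNA and is not analysed here. In the early postimplantation mouse embryo, cells draw largely on glycolysis, and respiratory capacity grows as tissues such as the heart form.

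RNA was sequenced from cultured embryos of ICR mice that had been separated into an anterior embryonic (A), a posterior embryonic (P) and an extraembryonic (ExE) part. Explants were kept for 48 h in N2B27 medium with EPZ005687, an inhibitor of EZH2, the enzyme that places methyl groups on lysine 27 of histone H3, or with DMSO, its solvent, in the same volume. Each of the 6 combinations of region and treatment has 1 library, so regions or treatments stand in for repeats in every test, and p-values reflect how far these 6 libraries scatter. Stage at collection for the RNA embryos, the dose and the number of embryos in a library are not stated in the labels used here, and a code in the column names is shared within a treatment and differs between treatments, so it cannot be told apart from treatment.

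Total counts ran from 1000342 in A with EPZ005687 to 5812535 in ExE with DMSO. Levels are given as scaled CPM, counts per 1e+06 of a library total corrected by TMM scaling, and they are compared between libraries, never between genes, because transcript lengths were not used here. The P EPZ005687 library stood apart in composition. The ribosomal RNA precursor Rn45s took 6.54% of its counts against 0.0538% to 1.44% elsewhere. The 84 cytosolic ribosomal protein genes took 14.4% against 2.41% to 6.10%. Both shares also separated the treatments in all regions. Rn45s took 0.0538% to 0.109% with DMSO and 0.521% to 6.54% with EPZ005687. The ribosomal protein genes took 2.41% to 3.41% and 4.90% to 14.4%. The summed level of 8 visceral endoderm markers was 39589 and 17632 scaled CPM in the ExE libraries and 71.3 to 12253 in the embryonic ones, while 5 trophoblast markers summed to 2.69 to 36.7 in the 6 libraries and Cdx2, a trophoblast regulator, had no count in either ExE library. Xist ran from 154 to 336 scaled CPM in the DMSO libraries and from 7.05 to 32.03 with EPZ005687, and 4 chromosome Y genes summed to 1.34 to 2.36 and to 147 to 388, so the treatments separate on these sex-linked genes. Embryo sex therefore cannot be told apart from treatment in any comparison of EPZ005687 with DMSO.

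Ndufs5, an accessory subunit of the membrane arm, was the 1 gene of the 44 with no count in any library. A count of 0 allows at most 3 counts, or 0.673 scaled CPM in ExE with DMSO and 2.34 in A with EPZ005687, as counting error alone. RefSeq lists a transcribed copy, Ndufs5-ps, with which reads can be shared. For the same reason counts are uncertain for Ndufa11, Ndufa12, Ndufab1, Ndufb4 and Ndufs6, which have pseudogenes or near copies. Strand use in the counting is not given in the sources used here, so reads of Ndufs1 and Ino80dos (14704 shared bases), Ndufa13 and Tssk6 (375) and Ndufb11 and Rbm10 (263) cannot be told apart where these genes overlap. Ndufa2, Ndufa1 and Ndufv2 share 69, 17 and 10 bases with a neighbour in the table.

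Promoters of the members were searched for short motifs known from respiratory genes. Whether these letters bear on the levels in any library was not tested. RefSeq promoters of GRCm38.p6, from 250 bases before to 50 bases after the start, were matched for 39 of the 44 members, 1 per gene. The YY1 letters AAGATGGC, searched on both strands, were in 7 of the 39 (17.9%), against 2.88% of all 27025 promoters and 4.5% of the promoters of tested genes. The share was 16.9% in promoters of mitochondrial ribosomal proteins (11 of 65), close to that of the members, and 3.33% in those of complexes II to V. In these 7 the letters lay on the gene's own strand, 23 to 39 bases from the start, and they contain ATG, the letters of a start codon. The windows of 30 bases show the YY1 letters in capitals, 5′ to 3′ on the gene's strand, for all 7, which stood high, low or between in P with EPZ005687.
Ndufa3 (chr7:3617384-3617413, plus strand): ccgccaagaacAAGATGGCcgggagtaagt
Ndufs4 (chr13:114388045-114388074, minus strand): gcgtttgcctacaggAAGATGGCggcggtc
Ndufs6 (chr13:73328433-73328462, minus strand): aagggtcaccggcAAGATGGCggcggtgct
Ndufb8 (chr19:44555393-44555422, minus strand): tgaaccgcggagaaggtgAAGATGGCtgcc
Ndufc1 (chr3:51408915-51408944, minus strand): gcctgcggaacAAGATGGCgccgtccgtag
Ndufa9 (chr6:126849097-126849126, minus strand): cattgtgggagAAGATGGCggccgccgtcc
Ndufs7 (chr10:80249462-80249491, plus strand): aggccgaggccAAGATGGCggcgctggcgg

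The NRF1 letters GCGCATGCG, which overlap their own reverse complement, were in 4 of the 39 member promoters (10.3%), against 1.81% of all promoters and 3.53% of those of tested genes. They were in 6 of 65 promoters of mitochondrial ribosomal proteins (9.23%) and in 6 of 30 of complexes II to V (20.0%). These windows are shown with the NRF1 letters or their reverse complement in capitals, since Ndufaf4 and Ndufaf5 are among the members with the largest differences.
Ndufaf5 (chr2:140170651-140170680, plus strand): tagtcccgttgGCGCATGCGcctaatagaa
Ndufaf4 (chr4:24897959-24897988, plus strand): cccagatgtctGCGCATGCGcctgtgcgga
Ndufa11 (chr17:56717691-56717720, plus strand): acctgcactgcGCGCATGCGcgcacgcctt
Ndufa8 (chr2:36049329-36049358, minus strand): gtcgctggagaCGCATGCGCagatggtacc
The ETS letters CCGGAAG were in 12.8% of member promoters against 9.12% of all and 16.8% of those of tested genes, the SP1 letters GGGCGG in 51.3% against 35.9% and 60.6%, and the TATA letters TATAAA in 10.3% against 14.2% and 7.99%. Median GC content was 59.3% in member promoters and 52.7% in all promoters. A match describes letters in a window and is no measure of binding.

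Summed over all members, Nduf transcripts were most abundant in P with EPZ005687. The sum was 3920 scaled CPM (95% counting interval 3827 to 4016) in A with DMSO and 3699 (3595 to 3806) in A with EPZ005687, 6543 (6451 to 6635) and 12164 (12016 to 12313) in P, and 7081 (7003 to 7159) and 7637 (7529 to 7746) in ExE. Both A libraries were therefore lowest, P with DMSO and both ExE libraries lay close together, and P with EPZ005687 stood 1.86-fold above its DMSO partner. The log2 ratio of the sums in A was -0.08 with scaled totals and turned positive with raw totals (0.34) and with totals that leave out Rn45s and ribosomal protein genes (0.41). In P it was 0.89, 1.06 and 1.35 in the same order, and in ExE 0.11, 0.82 and 0.86. Set against the sum of complexes II to V, the Nduf sum was 0.667 and 0.450 in A, 0.581 and 0.548 in P and 0.604 and 0.687 in ExE, DMSO first, so complexes II to V also stood higher in P with EPZ005687. In bulk tissue, fewer cells of a type and less RNA per cell cannot be told apart.

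**Figure D1:**
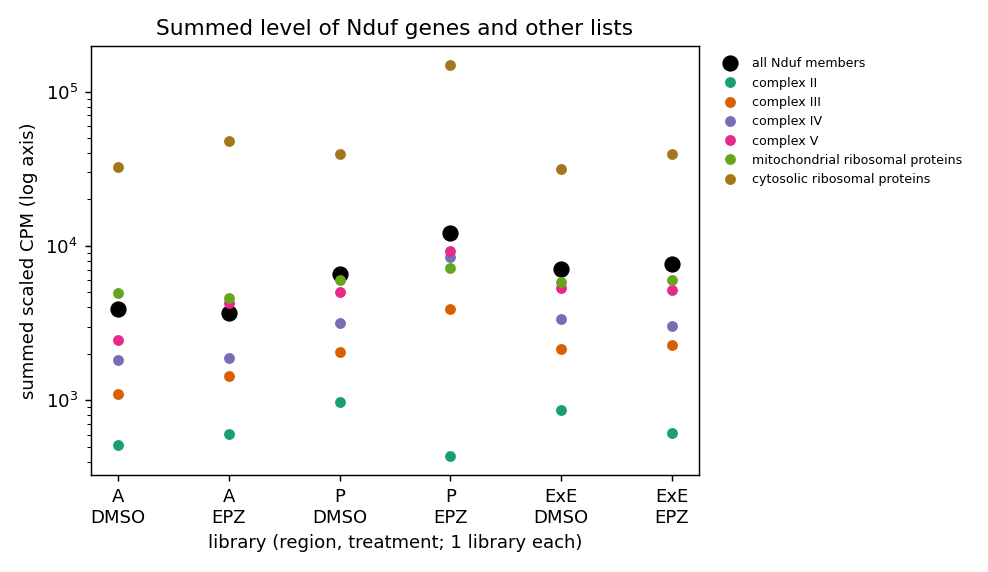
Summed scaled CPM (log axis) of the Nduf genes and of other gene lists in each of the 6 libraries, 1 point per list and library. The Nduf sum is 12164 in P with EPZ005687 and 3699 to 7637 in the other 5 libraries, and complex II is the 1 plotted list that is lowest in P with EPZ005687.

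In P, 4 of 7 core subunits stood lower with EPZ005687 than with DMSO beyond counting error and 2 stood higher, while 8 of 10 matrix and 16 of 18 membrane accessory subunits stood higher and 1 of each lower. The difference between these roles was not tested. Summed over the core subunits, where Ndufv2 weighs most, the level was 974 scaled CPM with DMSO and 1333 with EPZ005687, a 1.37-fold higher sum. With 1 library on each side there is no test, and ratios are given with counting intervals only. Of the 43 members, 16 (37.2%) stood more than 2-fold higher with EPZ005687, against 25.9% of all tested genes, and 7 (16.3%) more than 2-fold lower, against 27% of all tested genes. The median log2 ratio over members was 0.77 (SD over members 1.17), and over all tested genes -0.02. In A, 7 members (16.3%) were past 2-fold higher and 3 (6.98%) past 2-fold lower, against 32.3% and 22.5% of all genes. In ExE it was 1 (2.33%) and 3 (6.98%), against 28.5% and 22%. Both are below the shares of genes in general, with a spread over members of 0.61 (SD) against 1.75 over all genes. The spread in ExE was similar in complexes III, IV and V (0.64, 0.52 and 0.58) and mitochondrial ribosomal proteins (0.65), and 0.92 in complex II. All tested genes include genes of few counts, and levels were not matched to those of the members. The members' median log2 ratios in A and ExE were 0.09 and 0.19, against 0.14 and 0.02 over all genes.

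**Figure D2:**
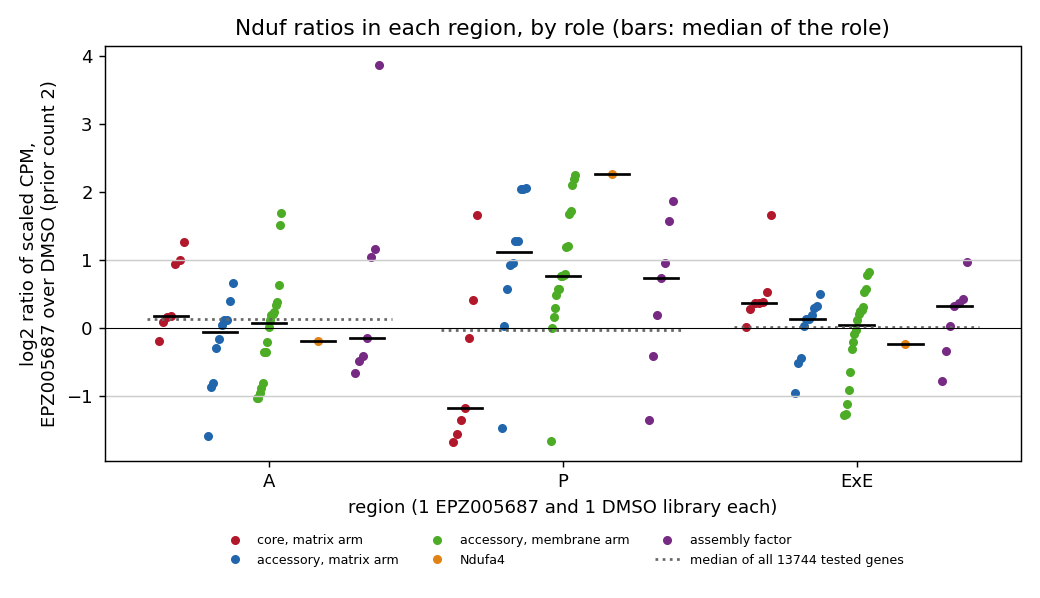
Log2 ratio of scaled CPM, EPZ005687 over DMSO, for the tested Nduf genes in each region, coloured by role, with the median of each role as a bar and the median of all tested genes as a dotted line. In P the core subunits have a median of -1.16 and the accessory subunits medians of 1.12 and 0.77, while in A and ExE the role medians lie between -0.23 and 0.37.

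Among the core subunits are those that carry the flavin and the iron-sulfur clusters. Ndufv1, which binds NADH and the flavin, stood at 30.7 scaled CPM in A with DMSO and 75.0 with EPZ005687, 63.2 and 27.7 in P, and 30.5 and 98.1 in ExE. Ndufs1, the large iron-sulfur subunit of the NADH module, stood at 48.3 and 97.6 in A, 107 and 36.2 in P, and 93.9 and 122 in ExE, DMSO first. Both genes share one layout: EPZ005687 above DMSO in A and ExE, and below it in P. The P EPZ005687 library was the lowest of the 6 for both, but for Ndufv1 the DMSO libraries of A and ExE, at 30.7 and 30.5, lay close to its 27.7, which rests on 59 counts.

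Ndufs7, which carries the last iron-sulfur cluster before ubiquinone, stood at 36.6 and 39.0 scaled CPM in A, 112 and 34.8 in P, and 93.3 and 94.9 in ExE. It was lowest in P with EPZ005687, but both A libraries lay close to that value. In P the log2 ratio was -1.67 for Ndufs7 (95% interval -2.07 to -1.32), -1.55 for Ndufs1 (-1.95 to -1.21) and -1.16 for Ndufv1 (-1.63 to -0.76). These intervals cover counting error only, with 59 to 77 counts behind each gene in P with EPZ005687.

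The other core subunits went otherwise. Ndufs3, a subunit of the ubiquinone module, stood at 116 and 102 scaled CPM in A, 143 and 129 in P, and 134 and 175 in ExE, a narrow range with overlapping treatments. Ndufs8, another iron-sulfur subunit next to the ubiquinone site, stood at 52.5 and 59.3 in A, 97.8 and 131 in P, and 85.4 and 125 in ExE, and was higher with EPZ005687 in each region. Ndufv2, the iron-sulfur partner of Ndufv1, stood at 215 and 242 in A, 286 and 910 in P, and 241 and 311 in ExE, so it was highest of the 6 in P with EPZ005687. Its log2 ratio in P was 1.67 (1.55 to 1.79). In ExE the ratio was positive for all 7 core subunits, from 0.02 for Ndufs7 to 1.66 for Ndufv1, and in A for 6 of 7. Among these positive ratios, the counting interval held 0 for Ndufs7 in ExE (-0.21 to 0.26). In A it held 0 for Ndufs7 (-0.47 to 0.66), Ndufs8 (-0.28 to 0.64) and Ndufv2 (-0.05 to 0.39).

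**Figure D3:**
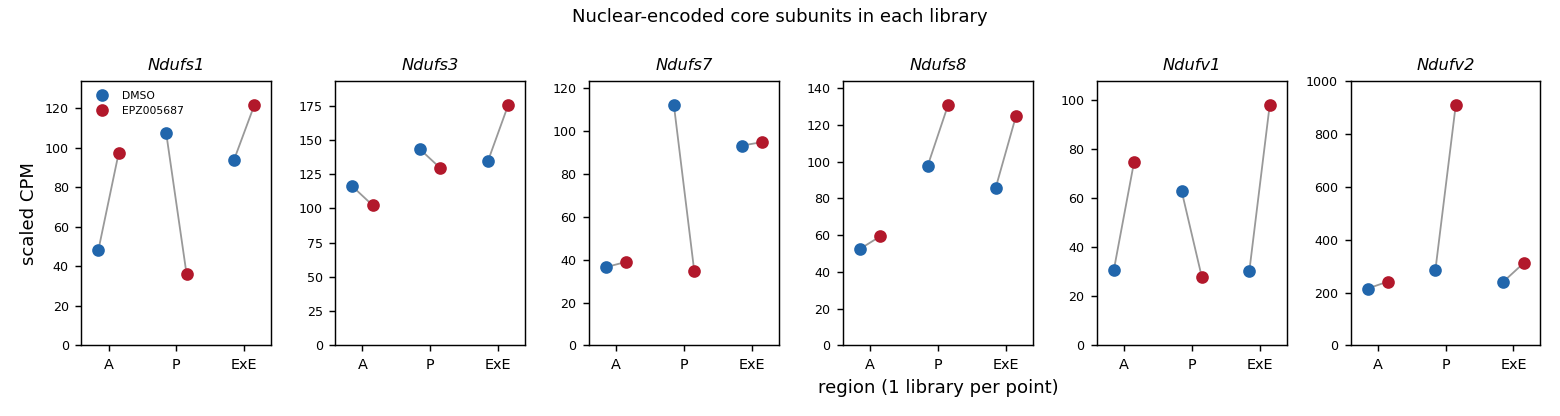
Scaled CPM (linear axis from 0, a separate scale for each gene) of core subunits in A, P and ExE, with DMSO and EPZ005687 libraries joined by a line. Ndufv1 and Ndufs1 stand higher with EPZ005687 in A and ExE and lower in P, whereas Ndufv2 stands at 910 in P with EPZ005687 and at 215 to 311 elsewhere.

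Accessory subunits of the matrix arm had a median log2 ratio in P of 1.12, and 9 of 10 ratios were positive, 8 of them beyond counting error. Ndufs4, whose loss causes a Leigh-like encephalopathy in mice and humans, stood at 43.0 and 46.8 scaled CPM in A, 56.8 and 238 in P, and 56.9 and 29.2 in ExE. P with EPZ005687 was far above the other 5 libraries, which lay within 29.2 to 56.9, and the log2 ratio in P was 2.05. Ndufs6, a zinc-binding subunit of the NADH module, had a log2 ratio in P of 2.04, and Ndufa5, a subunit of the ubiquinone module, stood close to it. The exception was Ndufa9, a ubiquinone module subunit that binds a nucleotide cofactor, at 153 and 167 in A, 254 and 92.2 in P, and 296 and 339 in ExE. Its log2 ratio in P was -1.46 (-1.70 to -1.24), between the -1.67 of the core gene Ndufs7 and the -1.16 of Ndufv1. The core genes Ndufv2 and Ndufs8 had positive ratios there.

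Accessory subunits of the membrane arm gave a similar picture, with 16 of 18 tested genes higher with EPZ005687 in P beyond counting error, Ndufa8 level at 199 scaled CPM in both libraries, and a median log2 ratio of 0.77. Ndufa3 stood at 10.6 and 35.9 scaled CPM in A, 58.4 and 280 in P, and 67.0 and 65.7 in ExE, a log2 ratio in P of 2.24 (2.01 to 2.51). Ndufb3 and Ndufb5, subunits of the outer part of the membrane arm, had 2.19 and 2.10. Ndufa1, an X-linked subunit needed for assembly of the membrane arm, stood at 101 and 57.8 in A, 102 and 338 in P, and 180 and 75.3 in ExE, higher with EPZ005687 in P and lower in A and ExE. The levels of Xist and the chromosome Y genes also separate the treatments. Embryo sex and treatment therefore cannot be told apart for Ndufa1, the X-linked Ndufb11 or any other member.

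Ndufa10, a membrane arm subunit with a fold like that of a nucleoside kinase, was the 1 membrane arm gene lower with EPZ005687 in P. It stood at 113 and 134 scaled CPM in A, 131 and 41.4 in P, and 161 and 200 in ExE, and 41.4 was the lowest of the 6. Ndufa4 stood at 208 and 182 in A, 297 and 1437 in P, and 365 and 310 in ExE, with a log2 ratio in P of 2.27 (2.17 to 2.38), the highest among the members. It made up 11.8% of the Nduf sum in P with EPZ005687 and 4.06% to 5.29% in the other libraries. Core subunits made up 11.0% of the sum in P with EPZ005687, 11.5% in ExE with DMSO and 14.2% to 21.0% in the other 4. Among the assembly factors, with a median log2 ratio in P of 0.73, Ndufaf2 had the highest, 1.87, and Ndufaf7 the lowest, -1.35.

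Over all roles, P with EPZ005687 was the highest of the 6 libraries for 28 of 43 members (65.1%), against 22.6% of all tested genes, and the lowest for 6 (14%), against 17.2%. The 28 were 2 of 7 core subunits, 8 of 10 matrix and 14 of 18 membrane accessory subunits, Ndufa4 and 3 of 7 assembly factors, and the 6 included Ndufv1, Ndufs1, Ndufs7, Ndufa9 and Ndufa10. This count was added after the library was seen to stand apart. The same library held the summed cytosolic ribosomal proteins at 147595 scaled CPM against 31384 to 47638 elsewhere, Rn45s at 66848 against 617 to 11219, and 4 cardiac markers at 1531 against 4.72 to 29.9, with Myl7, an atrial myosin light chain, at 801 against 0 to 1.57. Actc1, cardiac actin, rose with EPZ005687 over the 3 regions with a log2 difference of 3.79 (adjusted p = 0.03 in edgeR). It stood at 22.2 and 359 scaled CPM in P, DMSO first. In A it stood at 0 and 3.12 and in ExE at 0.448 and 3.60, which are few counts. For Myl4, another atrial light chain, the treatment difference in P differed from that in A and ExE (edgeR adjusted p = 0.014). In the same pair of libraries, P with DMSO first, blood markers stood at 9525 and 1342, visceral endoderm markers at 12253 and 8050, and trophoblast markers at 2.69 and 36.7. The part of each of these in the result was not tested. Of the members with the YY1 letters, Ndufa3, Ndufs4 and Ndufs6 stood high in P with EPZ005687 and Ndufs7 and Ndufa9 low, while Ndufb8 and Ndufc1 had log2 ratios in P of 0.17 and 0.50.

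**Figure D4:**
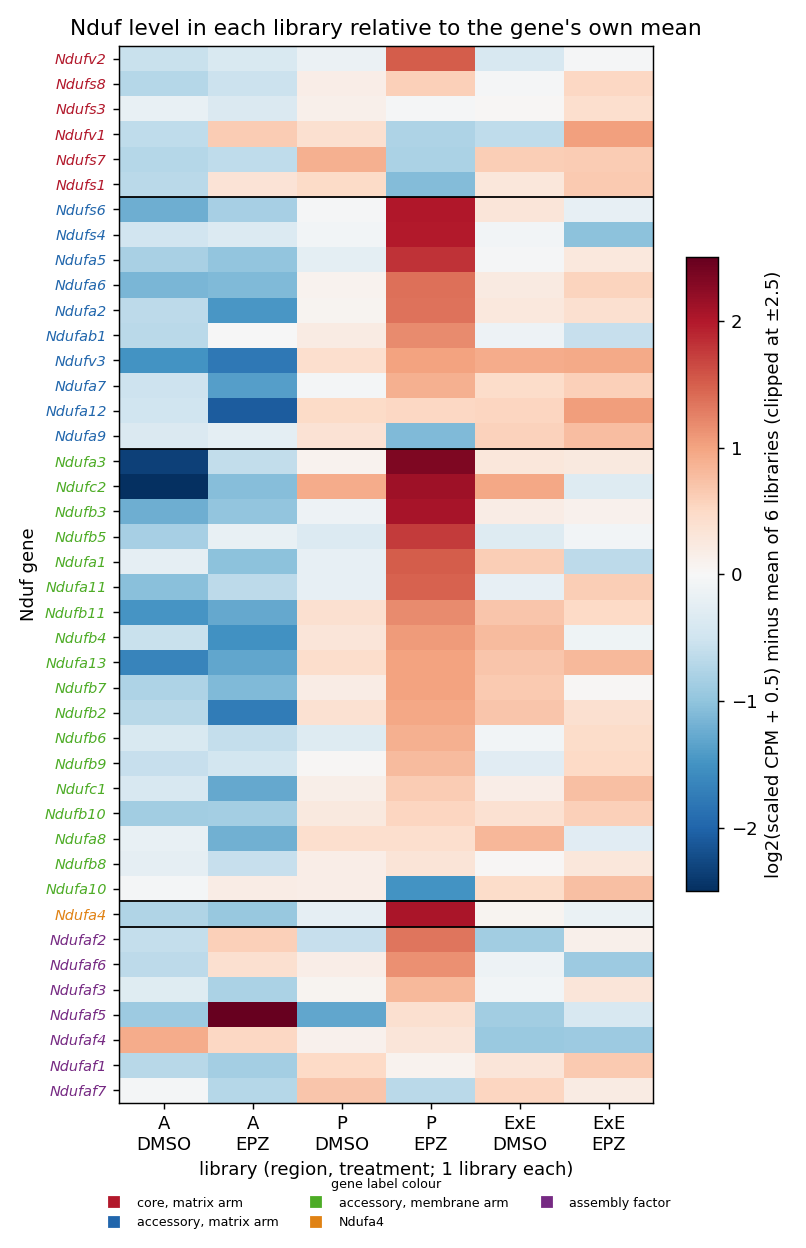
Level of tested Nduf genes in each library as log2(scaled CPM + 0.5) minus the gene's mean over the 6 libraries, ordered by role and then by the value in P with EPZ005687. Most accessory genes are highest in P with EPZ005687, while Ndufv1, Ndufs1, Ndufs7, Ndufa9 and Ndufa10 are lowest there, and most genes are low in both A libraries.

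Whether the treatment difference in P differed from that in A and ExE was tested with an added term in the edgeR fit, a test chosen after the data were seen. None of the 43 members passed at an adjusted p of 0.05 in edgeR, DESeq2 or limma-voom, against 0.0218% of all tested genes in edgeR. At an unadjusted p under 0.05 in edgeR there were 7 members (16.3%), against 4.18% of all tested genes. In 5 of these 7 the effect was higher in P. The members' median log2 difference was 0.82, against -0.31 over all genes. The highest values were 2.77 for Ndufa1 (SE 0.97, edgeR adjusted p = 0.68), 2.5 for Ndufs4 (SE 1.11, adjusted p = 1) and 2.49 for Ndufa4 (SE 0.95, adjusted p = 0.80). The lowest were -2.67 for Ndufv1 (SE 1.25, edgeR adjusted p = 1) and -2.26 for Ndufs1 (SE 1.08, adjusted p = 1).

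P against A, with treatment as a term in the fit, asked whether Nduf levels differ along the embryonic axis. Members stood higher in P for 38 of 43 genes, with a median log2 difference of 1.20 against 0.12 over all tested genes. No member passed at an adjusted p of 0.05 in edgeR, against 0% of all tested genes, and at an unadjusted p under 0.05 there were 16 members (37.2%), all higher in P, against 5.41% of all tested genes. DESeq2 called 4 members, all higher in P (9.3%, against 1.8% of the genes with an adjusted p): Ndufc2 (adjusted p = 0.033), Ndufa13 (0.041), Ndufv3 (0.044) and Ndufa3 (0.044). Limma-voom called 0. Both P libraries lay above both A libraries for 31 members (72.1%), against 19.2% of all genes, and below them for 1, Ndufaf4 (2.33%), against 14.5%. The 31 were 9 of 10 matrix and 16 of 18 membrane accessory subunits, 3 of 7 core subunits, Ndufa4 and 2 of 7 assembly factors.

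Ndufc2, a membrane arm subunit that sits beside Ndufc1, stood at 4.13 and 13.3 scaled CPM in A, 53.7 and 124 in P, and 55.4 and 22.4 in ExE. Its log2 fold change P over A was 3.37 (SE 0.94, edgeR adjusted p = 0.52), with 7 and 17 counts in the A libraries. Ndufa3 had 2.75 (SE 0.76, edgeR adjusted p = 0.51). Ndufv3, an accessory subunit of the NADH module, stood at 36.6 and 29.7 in A, 139 and 209 in P, and 197 and 201 in ExE, and had 2.37 (SE 0.63, edgeR adjusted p = 0.48). For these 3 genes both P libraries lay above both A libraries.

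At the other end, Ndufa10 had a log2 difference of -0.62 (SE 0.69, edgeR adjusted p = 0.94), which was 0.20 without the P EPZ005687 library. Ndufaf4, which helps form the ubiquinone module, had -0.54 (SE 0.69, edgeR adjusted p = 0.95), and Ndufaf5 had -2.0 (SE 1.56, edgeR adjusted p = 0.93). Core subunits had a median of 0.31, with 1.20 for Ndufv2 as the highest, well under the medians of 1.71 and 1.51 of the accessory groups. In sums over each group, this gap was not seen between the DMSO libraries alone. There the sums were higher in P by 1.67-fold for core, 1.79-fold for matrix accessory and 1.67-fold for membrane accessory subunits. Between the EPZ005687 libraries they were higher by 1.72-fold, 4.19-fold and 3.36-fold in the same order. Ndufv2, at 242 scaled CPM in A and 910 in P with EPZ005687, weighs most in this core sum. In the same pair Ndufs1, Ndufv1 and Ndufs7 were lower in P than in A, and Ndufs3 and Ndufs8 higher.

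The libraries decide part of this comparison. Without P DMSO the members' median was 1.61 and 9 members (20.9%) passed in edgeR, against 1.74% of the genes tested in that fit, among them Ndufa3 (adjusted p = 0.0096), Ndufs6 (0.011) and Ndufa4 (0.014), and without P EPZ005687 the median was 0.80 and none passed. Between the DMSO libraries alone, the Nduf sum was 1.67-fold higher in P, and between the EPZ005687 libraries 3.29-fold. Visceral endoderm markers summed to 71.3 and 2906 scaled CPM in A and 12253 and 8050 in P, and 5 blood markers to 12.4 and 12.5 in A and 9525 and 1342 in P, so other tissue moved with the region. Six3 and other anterior neural markers summed to 740 and 199 in A and 42.7 and 70.5 in P. The part of these in the result was not tested.

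**Figure D5:**
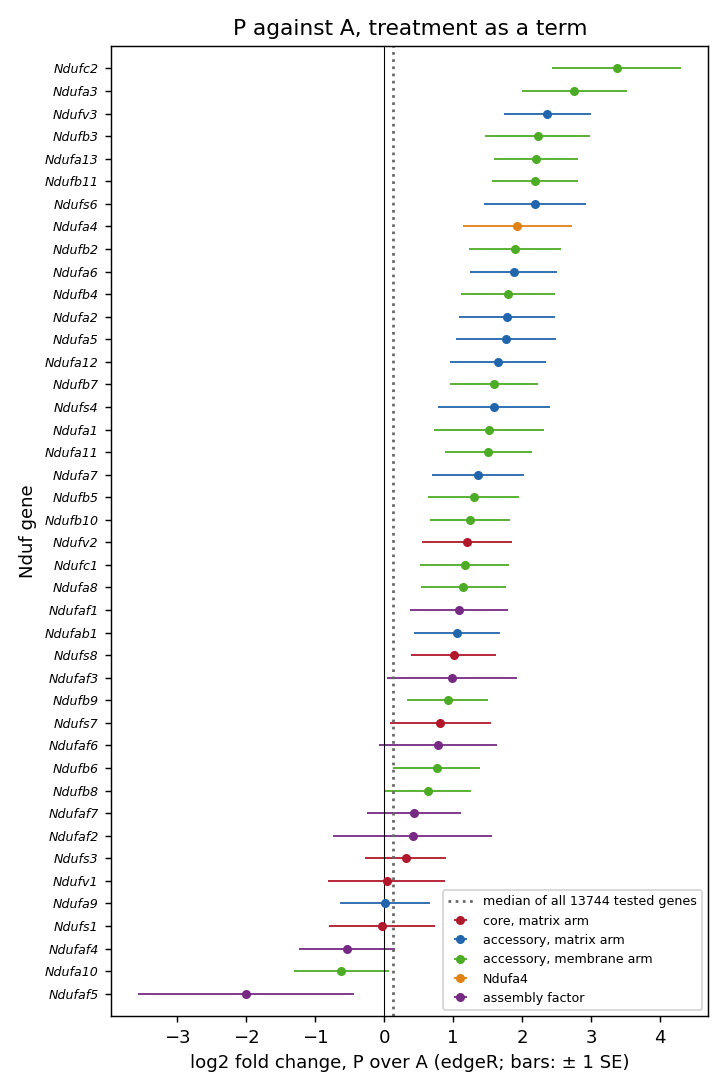
Log2 fold change P over A of tested Nduf genes from the edgeR fit, with bars of ± 1 SE, coloured by role. Of the genes shown 38 lie above 0, and values run from 3.37 for Ndufc2 down to -2.0 for Ndufaf5, and the dotted line marks the median of all tested genes at 0.12.

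ExE against the mean of A and P addressed how extraembryonic tissue differs from the embryo. Members had a median log2 difference of 0.37, against 0.03 over all genes, and 33 of 43 stood higher in ExE. The mean of A and P joins unlike parts. The Nduf sums in ExE, 7081 and 7637 scaled CPM, lay above both in A (3920 and 3699). They lay between those in P (6543 and 12164). Tissue markers differed in this comparison: median log2 differences were 5.34 for blood, 3.11 for visceral endoderm and -4.12 for anterior neural markers, and the blood sum was 539 scaled CPM in ExE with DMSO and 27706 with EPZ005687. Their part in the result was not tested. No member passed at an adjusted p of 0.05 in edgeR, DESeq2 or limma-voom, against 0% of all tested genes in edgeR, and 3 members (6.98%) had an unadjusted p under 0.05 in edgeR, against 6.42% of all tested genes, a share near the background. Ndufv3 had 1.39 (SE 0.50, edgeR adjusted p = 0.59). Ndufa12, the subunit that takes the place of Ndufaf2 late in assembly, stood at 180 and 59.3 scaled CPM in A, 352 and 361 in P, and 368 and 520 in ExE, with a log2 difference of 1.17 (SE 0.57, edgeR adjusted p = 0.80). Both ExE libraries lay above all 4 embryonic ones for Ndufa12.

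Ndufa13, also known as Grim19, stood at 63.1 and 80.4 scaled CPM in A, 268 and 399 in P, and 319 and 346 in ExE, with a log2 difference of 1.12 (SE 0.48, edgeR adjusted p = 0.74). P and ExE overlapped and both A libraries were low. Ndufaf4 stood at 89.0 and 67.1 in A, 50.1 and 57.4 in P, and 24.2 and 24.8 in ExE, the order opposite to most subunits, with a log2 difference of -1.40 (SE 0.64, edgeR adjusted p = 0.77). Both ExE libraries were below all 4 embryonic ones. For the next-lowest genes, Ndufaf5 had -0.97 (SE 1.42, edgeR adjusted p = 0.99) and Ndufs4 -0.79 (SE 0.71, edgeR adjusted p = 0.97), and both turned positive, at 0.17 and 0.09, without the ExE EPZ005687 library.

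EPZ005687 against DMSO over the 3 regions gave no called member. At an adjusted p of 0.05 edgeR, DESeq2 and limma-voom each called 0 of 43, against 1.53% of all tested genes in edgeR, and 0 of 43 had an unadjusted p under 0.05 in edgeR, against 8.87% of all tested genes. The members' median log2 fold change was 0.25, against 0.20 over all genes, and with library totals in place of TMM scaling the medians were 0.68 and 0.63, so the members stayed near the shift of all genes under both scalings. EPZ005687 libraries lay above all DMSO libraries for 3 members (6.98%), Ndufaf2, Ndufaf5 and Ndufb5, against 8.51% of all genes, and below for 0, against 8.9%.

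Assembly factors held the extremes of this comparison. Ndufaf2, a chaperone bound late in assembly, stood at 8.25 and 19.5 scaled CPM in A, 8.4 and 32.9 in P, and 6.73 and 14 in ExE, or 7.79 ± 0.93 with DMSO and 22.1 ± 9.72 with EPZ005687 (SD over 3 regions). It was higher with EPZ005687 in 3 of 3 regions, with a log2 difference of 1.44 (SE 0.95, edgeR adjusted p = 0.77) resting on 14 to 70 counts per library. Ndufaf5, which hydroxylates an arginine of Ndufs7, stood at 2.36 and 45.3 in A, 1.68 and 6.58 in P, and 2.47 and 3.60 in ExE, with a log2 difference of 2.21 (SE 1.34, edgeR adjusted p = 0.74). All but the A EPZ005687 library had 14 counts or fewer for it. Ndufa3 had 1.35 (SE 0.62, edgeR adjusted p = 0.57).

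At the low end, Ndufaf7, a methyltransferase, stood at 54.8 and 34.4 scaled CPM in A, 92.0 and 35.7 in P, and 83.2 and 66.1 in ExE, lower with EPZ005687 in 3 of 3 regions with TMM scaling. In ExE the gene took 371 of 5812535 counts with DMSO and 165 of 1995240 with EPZ005687, so with library totals it stood higher there. Its log2 fold change was -0.77 (SE 0.56, edgeR adjusted p = 0.80), and the treatments overlapped across regions. Ndufa8, a membrane arm subunit of the intermembrane side, stood at 130 and 64.0 in A, 199 and 199 in P, and 263 and 121 in ExE, with -0.70 (SE 0.50, edgeR adjusted p = 0.79). Ndufs7 had -0.50 (SE 0.60, edgeR adjusted p = 0.89), which became 0.11 without P EPZ005687 and 0.12 without P DMSO.

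The treatment difference in ExE was also tested against that in A and P. No member passed in edgeR, DESeq2 or limma-voom, against 0.0509% of all tested genes in edgeR, and 0 had an unadjusted p under 0.05 in edgeR, against 3.75% of all tested genes. The members' median was -0.12, against -0.07 over all genes. Values ran from 1.65 for Ndufv1, 1.28 for Ndufa12 and 1.03 for Ndufa10 to -2.07 for Ndufs4, -2.55 for Ndufaf5 and -2.70 for Ndufc2, each with an edgeR adjusted p of 1. Across the 43 members, the log2 ratios of a region gave a Pearson r of 0.12 between A and P, 0.19 between A and ExE and -0.22 between P and ExE, a description over genes of the same libraries, against 0.17, 0.12 and 0.28 over all tested genes.

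Genes of the other respiratory complexes also lay on both sides of 0 in P. In complex II, which consists of catalytic and anchor subunits, all 4 genes stood lower with EPZ005687 in P, from -0.42 for Sdhc to -1.60 for Sdhd on the log2 scale (median -0.97). In complex III the median was 0.94, but Uqcrc1, a large core protein, had -2.61 and Cyc1, cytochrome c1, had -1.79, while Uqcrb had 2.57 and Uqcrh, the hinge protein, 2.49. The core protein Uqcrc2 had 0.18 and the catalytic Rieske protein Uqcrfs1 0.86. In complex IV all 10 genes were higher (median 1.49), up to 2.52 for Cox6c. In complex V the median was 1.28 over 16 genes. Within its catalytic head, Atp5b and Atp5a1 had -1.03 and -0.96, the 2 negative values of the complex, and Atp5c1 and Atp5e had 1.03 and 2.29. None of the genes of complexes II to V was called in edgeR in any comparison, and their difference from the Nduf genes was not tested.

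P over A, complexes III, IV and V had median log2 fold changes of 1.53, 1.88 and 1.33, with 5 of 9, 8 of 10 and 8 of 16 genes at an unadjusted p under 0.05 in edgeR, all higher in P. Complex II had a median of 0.47, with 0 such genes. Mitochondrial ribosomal proteins had 0.61 over 74 genes with 1 such gene, and cytosolic ribosomal proteins 1.37 over 77 tested genes with 11. In the P libraries alone, cytosolic ribosomal proteins had a median log2 ratio, EPZ005687 over DMSO, of 2.38 and mitochondrial ribosomal proteins 0.09. Glycolytic genes had -0.76, from -2.93 for Pfkl to 1.98 for Eno3. Of 8 other complex I assembly factors, such as Acad9 and Nubpl, 3 were higher and 5 lower with EPZ005687 in P (median -0.09), and none was called in any comparison. Among 10 tested regulators of mitochondrial gene expression, Ppargc1a, a coactivator of mitochondrial biogenesis, had the lowest log2 ratio in P, -3.10, and Gabpa, an ETS factor, the highest, 1.76, and none was called. In glycolysis, Hk2, a hexokinase, was the 1 called gene of the respiratory, ribosomal, regulator and glycolysis lists and fell by 3.06 with EPZ005687 on the log2 scale (edgeR adjusted p = 0.016).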

How the data were processed

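The authors deposited raw read counts per gene symbol and library for 6 RNA libraries, not normalized. Per the submitters' processing notes, CASAVA 1.8, TopHat2 2.0.9, BWA and build mm10 were used. Counter, annotation and strand setting: not given in the sources used here. Entries named as dates (27 of 23154) were left out. They took 0.723% to 0.961% of a library's counts with DMSO and 0.162% to 0.218% with EPZ005687. The test set was the 13744 genes that reached 10 counts in 2 or more libraries. TMM scaling preceded a quasi-likelihood fit in edgeR 4.0.16, run in R 4.3.3, whose terms were region and treatment (2 residual degrees of freedom; 1 with an interaction term), Benjamini-Hochberg values over all tested genes and a threshold of 0.05. SE was derived from F, as the log2 difference over its root. Ratios within a region had 2 added as prior count and carry 95% exact binomial intervals conditional on the pair's total; sums have exact Poisson intervals; both cover counting error only. Nothing says that libraries came from separate litters. The fit was tested on simulated counts with known changes. Alternatives were DESeq2 1.42.0, limma-voom (limma 3.58.1), other scalings, no filter, other terms and leaving out each library. Values in every library are given for the core subunits, called members and the 3 highest and 3 lowest members of each comparison; other members were named for their role and value. For 1 member, counted in every total, its own result is not reported here. The members, lists and tests were chosen with earlier results of these data known. The other 54 samples of the series were not used.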

Additional observations from a re-analysis of the deposited data

How the results depend on the processing

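With 1 library per region and treatment, a change of small size cannot be seen, and a call rests on the spread between regions or treatments. No paired analysis was possible because each RNA group has 1 library and no replicate number to pair by; the region term already compares the treatments within regions, and without it the members' median for EPZ005687 against DMSO was 0.36, against 0.25. With library totals as the scaling, the members' median log2 fold change was 0.68 for EPZ005687 against DMSO, and the medians for the treatment difference in ExE and in P against the other regions were 0.29 and 0.42; relative to the median of all genes they were 0.05, -0.05 and 1.13, against 0.05, -0.05 and 1.13 with TMM. For P against A, 4 members were called in DESeq2, and leaving out a library gave 0 to 9 called members and medians of 0.80 (without P EPZ005687) to 1.61 (without P DMSO). In ExE the log2 ratio of the Nduf sums was 0.82 with raw totals and 0.86 without Rn45s and ribosomal protein genes, against 0.11. Leaving out a library in turn, Ndufs7 ran from -0.80 to 0.12 for EPZ005687 against DMSO, Ndufaf5 from -2.34 to 0.17 and Ndufs4 from -1.94 to 0.0861 for ExE, and Ndufa10 from -1.75 to 0.20 for P against A; the cause was not tested. Leave-one-out was not run for the interaction terms, which would have no residual degrees of freedom. Of all genes, 210 were called for EPZ005687 against DMSO, and 109 with library totals, 349 with no filter, 572 in DESeq2, 397 in limma-voom, 330 without P DMSO and 89 with A and P only. For ExE against A and P it was 0, and 210 with no filter, 242 in DESeq2, 136 in limma-voom and 0 to 388 without 1 library. For P against A it was 0, and 140, 180, 37 and 0 to 230 in the same order. For the treatment difference in ExE it was 7, and 0 with library totals and 16 in DESeq2; for that in P it was 3, and 41 with DESeq2 size factors, 14 with no filter, 22 in DESeq2 and 43 in limma-voom.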
